A study of Homo sapiens with 12 samples.

Results

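The cathepsins examined were CTSA, CTSB, CTSC, CTSD, CTSH, CTSK, CTSL, CTSS, CTSV and CTSZ, taken by gene symbol; the rule used no measured value, but the set was drawn up with earlier results of these data known. All 10 were among the 61806 genes of the deposited table, and all 10 were among the 17447 genes with enough counts to be tested. K1 and TPC-1, 2 established lines of human papillary thyroid cancer, had been transfected with siRNA and harvested 24 h later for RNA sequencing. The 4 groups, with 3 libraries each, were K1 cells with TRIM35 siRNA, K1 cells with a negative control siRNA, TPC-1 cells with TRIM35 siRNA and TPC-1 cells with the negative control siRNA. The labels give the genotype as WT for every group and name 1 batch. They do not say whether the libraries of a group came from separate cultures, so a p-value here speaks of library-to-library spread alone, possibly technical. One TPC-1 control library has another line name in its title, while its other labels and its column say TPC-1.

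Cathepsins are proteases of the endosome and lysosome, made as inactive precursors, sorted largely by mannose 6-phosphate tags and activated in the acidic compartment. Most are papain-like cysteine proteases that are held in check by cystatins, and some are also secreted and act on extracellular matrix. In the thyroid, cathepsins B, K and L take part in releasing thyroid hormone from thyroglobulin. The set is not of 1 catalytic kind: CTSB, CTSC, CTSH, CTSK, CTSL, CTSS, CTSV and CTSZ encode cysteine proteases, CTSD encodes an aspartic protease, and CTSA encodes a serine carboxypeptidase, which the heading of cysteine and aspartic cathepsins does not cover.

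CTSL and CTSV encode close relatives, and CTSV is largely a gene of thymus and testis in humans. They differed between the lines in opposite directions, as given below, so the aligned stretch of their promoters before the start sites is shown, with bases identical in both in capitals and gaps left out. The sequences are from RefSeq on GRCh38.p14, at chr9:87725871-87726115 on the plus strand for CTSL and chr9:97039143-97039383 on the minus strand for CTSV.
CTSL: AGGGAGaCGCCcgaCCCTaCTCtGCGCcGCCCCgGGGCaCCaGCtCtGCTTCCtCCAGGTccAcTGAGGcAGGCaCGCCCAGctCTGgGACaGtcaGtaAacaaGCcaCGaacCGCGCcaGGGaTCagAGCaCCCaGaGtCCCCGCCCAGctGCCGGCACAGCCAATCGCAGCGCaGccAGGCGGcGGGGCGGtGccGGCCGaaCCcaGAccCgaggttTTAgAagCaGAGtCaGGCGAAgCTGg
CTSV: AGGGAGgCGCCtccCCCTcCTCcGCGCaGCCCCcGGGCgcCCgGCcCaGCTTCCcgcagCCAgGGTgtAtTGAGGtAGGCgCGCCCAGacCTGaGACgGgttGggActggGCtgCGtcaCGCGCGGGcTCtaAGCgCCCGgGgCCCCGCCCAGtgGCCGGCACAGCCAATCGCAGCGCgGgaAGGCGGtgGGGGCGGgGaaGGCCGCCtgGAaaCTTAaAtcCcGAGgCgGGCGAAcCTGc
Of 252 aligned columns, 171 (67.9%) were identical and 18 held a gap. The longest identical run was 23 bases, GCCGGCACAGCCAATCGCAGCGC, from base -96 to -74 of CTSL and from base -86 to -64 of CTSV. It holds the letters CCAAT, a box that 34.6% of 35116 promoters of this length carry on either strand. When the full promoter of CTSL was aligned with 35115 others, no other promoter scored as high as that of CTSV.

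The other sequences shown are those around CACGTG, the core of the element read by the MIT/TFE factors that control lysosomal genes. Promoters of 300 bases (250 before the start site and 50 from it) were given for 7 of the 10 cathepsins, and those of CTSA and CTSD held CACGTG, against 7.26% of 35116 promoters. The letters read the same on both strands. In the windows below they are in capitals, from chr20:45891273-45891332 on the plus strand and chr11:1763935-1763994 on the minus strand.
CTSA: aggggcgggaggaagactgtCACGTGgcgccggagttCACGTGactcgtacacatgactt
CTSD: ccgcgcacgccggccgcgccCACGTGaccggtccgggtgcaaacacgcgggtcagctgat
The matches began at bases -42 and -25 of CTSA and at base -47 of CTSD. A match describes the letters in the window and is not a measured binding site. CTSA and CTSD differed between the lines in opposite directions, as given below.

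The libraries held between 16705044 and 22928861 counts and between 22526 and 28045 genes with at least 1 count. TRIM35, the targeted gene, had 1.20, 1.49 and 1.53 FPKM (counts scaled to exonic gene length and to the library's summed counts) in K1 siRNA libraries, against 1.51, 1.85 and 1.47 FPKM in K1 control libraries, and the groups overlapped. In TPC-1 it had 2.34, 2.56 and 2.58 FPKM in siRNA libraries, all below the 2.86, 2.91 and 3.06 FPKM of control libraries. The log2 fold change was -0.19 in K1 and -0.24 in TPC-1, with an adjusted p of 1 in both (edgeR quasi-likelihood test, Benjamini-Hochberg over all genes). The exact two-sided permutation p was 0.5 in K1 and 0.1 in TPC-1, the smallest that 3 against 3 libraries allow. The intervals of TRIM35 ran from 68.5% to 113% of control in K1 and from 66.8% to 108% in TPC-1 (edgeR). A lowering of TRIM35 transcript was thus not established in either line. Below, knockdown names the comparison of siRNA with control libraries only. Its results cannot speak for a loss of TRIM35. Among thyroid follicular markers, PAX8 was at 107 to 120 FPKM in K1 control libraries and 19.5 to 19.7 FPKM in TPC-1 control libraries, while TG, TSHR, SLC5A5, NKX2-1 and DUOX2 stayed at or below 0.19 FPKM in both lines.

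The lines differed widely in which cathepsins they carried. In control libraries, K1 had more CTSS, CTSH, CTSK, CTSL and CTSA transcript than TPC-1, and less CTSV, CTSD, CTSZ and CTSB. Of the 10 genes, 5 were higher and 4 lower in K1 at an adjusted p under 0.05, and CTSC was not called. Of all genes tested, 67.9% were called between these lines (35.8% higher and 32.1% lower in K1), so a large count is common to most genes in this comparison. The median log2 fold change was 0.31 over the 10 cathepsins against 0.06 over all genes tested, and the median absolute value was 1.24 against 0.88. In the siRNA libraries, which are other libraries of the same lines, the same 5 were higher and the same 4 lower, against 68.3% of all genes called. Over all 12 libraries, the 6 of K1 and the 6 of TPC-1 did not overlap for these 9 genes, 5 of them higher and 4 lower in K1, against 59.1% of all genes tested that separated in this way (32.8% higher and 26.3% lower in K1).

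**Figure D1:**
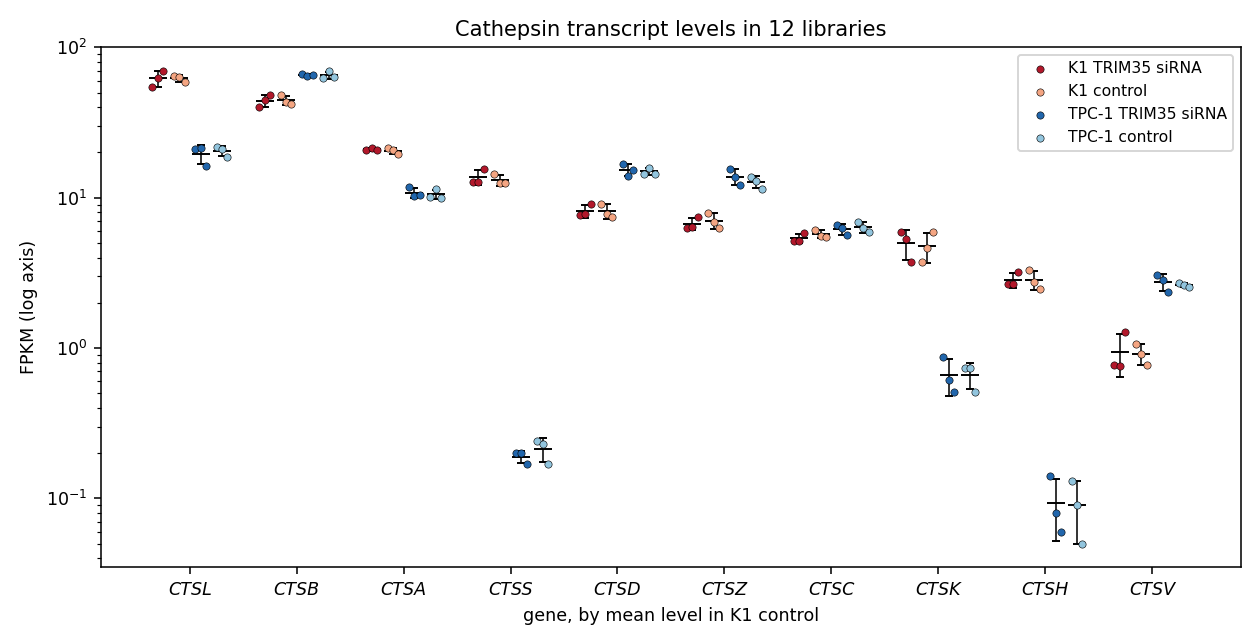
FPKM on a log axis of the 10 cathepsins in each of 12 libraries (points), with the mean and SD of the 3 libraries of each group (black). CTSS and CTSH lie far apart between the lines, while siRNA and control libraries of the same line lie together.

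CTSS, a cysteine protease that trims the invariant chain of MHC class II in antigen-presenting cells and stays active at neutral pH, had the largest difference of the 10. It had 14.4, 12.5 and 12.5 FPKM in K1 control libraries, against 0.24, 0.23 and 0.17 FPKM in TPC-1 control libraries, from 1434 to 2274 counts against 21 to 30. All K1 libraries were high and all TPC-1 libraries near the floor. The log2 fold change was 5.87 (SE 0.195, adjusted p = 7.27e-13, edgeR), a 58.4-fold difference with a 95% interval of 43.8 to 77.8. CTSS had 12.7, 12.8 and 15.5 FPKM in K1 siRNA libraries, against 0.20, 0.20 and 0.17 FPKM in TPC-1 siRNA libraries, with a log2 fold change of 6.07. In bulk RNA, a larger share of cells with a transcript and more of it per cell cannot be told apart.

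CTSH, an aminopeptidase of the lysosome, had 3.30, 2.75 and 2.47 FPKM in K1 control libraries, against 0.13, 0.09 and 0.05 FPKM in TPC-1 control libraries. The TPC-1 values rest on 12 to 33 counts a library. The groups did not overlap, and the log2 fold change was 4.90 (SE 0.297, adjusted p = 7.49e-10, edgeR). CTSK, the collagen-cleaving protease best known from osteoclasts, had 3.71, 4.66 and 5.91 FPKM in K1 control libraries, against 0.74, 0.74 and 0.51 FPKM in TPC-1 control libraries. Every K1 library was above every TPC-1 library, at a log2 fold change of 2.74 (SE 0.218, adjusted p = 2.04e-08, edgeR). CTSS and CTSK lie near each other on chromosome 1 of hg38, CTSS at 150730079 to 150765957 and CTSK at 150794880 to 150809577, both on the minus strand.

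CTSL, a broadly expressed endopeptidase of the lysosome, led the K1 pool. It had 64.2, 63.6 and 58.7 FPKM in K1 control libraries, against 21.6, 21.2 and 18.7 FPKM in TPC-1 control libraries, a log2 fold change of 1.51 (SE 0.154, adjusted p = 3.81e-07, edgeR). CTSA, the carboxypeptidase that also protects neuraminidase and beta-galactosidase in the lysosome, had 21.5, 20.7 and 19.6 FPKM in K1 control libraries, against 10.19, 11.42 and 10.02 FPKM in TPC-1 control libraries. Its groups stood clear of each other, at a log2 fold change of 0.87 (SE 0.115, adjusted p = 6.5e-06, edgeR). Of the 50-base stretches of its main transcript, 24% also lie in opposite-strand genes (NEURL2, PLTP and an antisense gene). Reads of these genes cannot be told apart there without stranded counting. NEURL2 had 0 to 13 counts and PLTP 22 to 166 counts a library, against 1575 or more for CTSA. If reads in these stretches were dropped, which is not known, the level of CTSA against other genes is understated.

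Among the genes lower in K1, CTSV had 1.07, 0.92 and 0.77 FPKM in K1 control libraries, against 2.70, 2.61 and 2.54 FPKM in TPC-1 control libraries. The groups did not overlap, and the log2 fold change was -1.60 (SE 0.220, adjusted p = 1.03e-05, edgeR). CTSL and CTSV thus differed in opposite directions: the ratio of CTSL to CTSV FPKM was 68.5 ± 8.12 in K1 control libraries and 7.83 ± 0.399 in TPC-1 control libraries (SD, n = 3 each).

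CTSD, the main aspartic protease of the lysosome, had 9.15, 7.81 and 7.40 FPKM in K1 control libraries, against 14.5, 15.9 and 14.5 FPKM in TPC-1 control libraries. The log2 fold change was -0.97 (SE 0.141, adjusted p = 1.77e-05, edgeR), with no overlap of the groups. A readthrough gene on the same strand shares 60.6% of the 50-base stretches of its main transcript and held 5 to 19 counts a library, against 704 or more for CTSD. How reads that match both genes were counted is not known. If they were dropped, the level of CTSD against other genes is understated. CTSZ, a carboxypeptidase with an integrin-binding motif in its propeptide, had 7.96, 6.91 and 6.30 FPKM in K1 control libraries, against 13.8, 12.9 and 11.5 FPKM in TPC-1 control libraries. Its log2 fold change was -0.94 (SE 0.149, adjusted p = 4.3e-05, edgeR), and K1 was lower in every library.

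CTSB, an abundant protease with both endopeptidase and carboxydipeptidase activity, had 48.0, 43.5 and 42.3 FPKM in K1 control libraries, against 62.7, 69.1 and 63.8 FPKM in TPC-1 control libraries. The difference was the smallest of the called ones in absolute log2 fold change, at -0.64 (SE 0.135, adjusted p = 0.000592, edgeR). CTSC, which activates serine proteases of leukocyte granules, had 6.11, 5.55 and 5.49 FPKM in K1 control libraries, against 6.91, 6.26 and 5.90 FPKM in TPC-1 control libraries. These groups overlapped, and the log2 fold change of -0.25 (SE 0.129, adjusted p = 0.0994, edgeR) has an interval of 0.697 to 1.02 in fold. In siRNA libraries the adjusted p of CTSC was 0.0607. It was called in the control libraries (adjusted p = 0.0282) when K1 control library 1 and K1 siRNA library 3 were both left out.

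**Figure D2:**
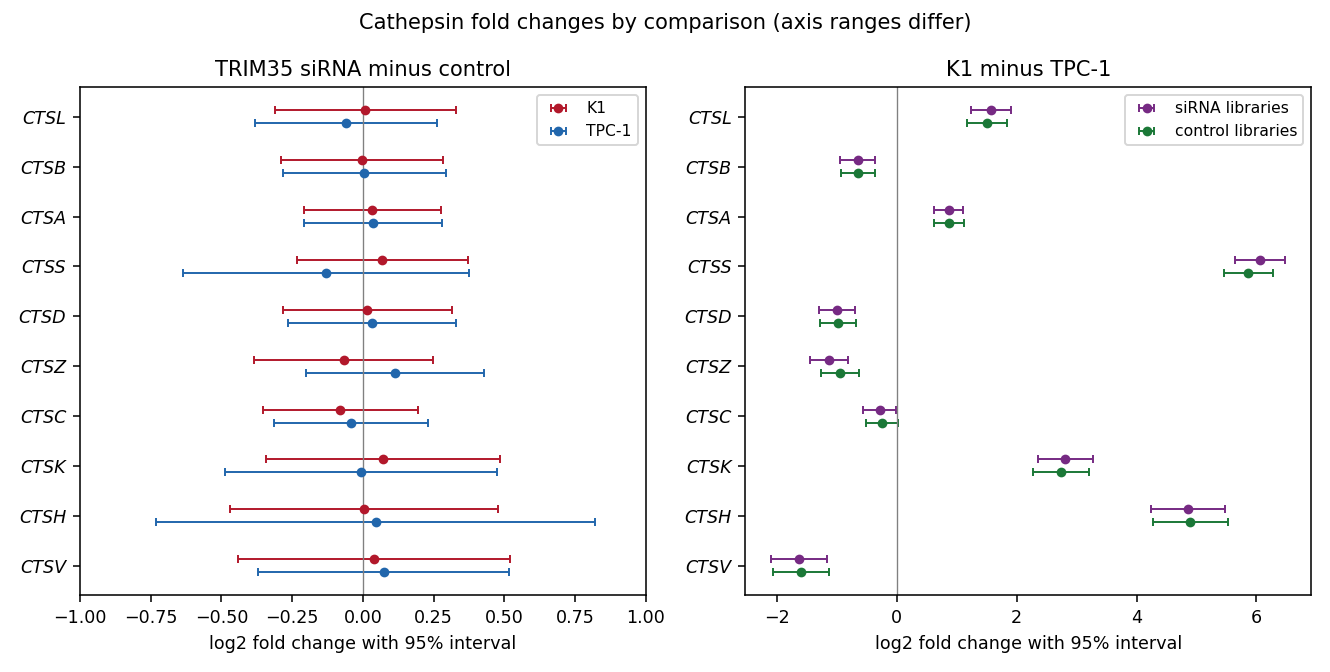
Log2 fold changes with 95% intervals from edgeR for each cathepsin, TRIM35 siRNA minus control within each line (left) and K1 minus TPC-1 within each treatment (right); the axis ranges differ. On the left every interval spans 0, and on the right the siRNA and control libraries give like values.

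By FPKM, the leading gene differed between the lines. CTSL was the highest in K1 and CTSB the highest in TPC-1, and the ratio of CTSL to CTSB FPKM was 1.40 ± 0.0634 in K1 control libraries and 0.315 ± 0.0269 in TPC-1 control libraries (SD, n = 3 each). By mean FPKM the K1 control order was CTSL, CTSB, CTSA, CTSS, CTSD, CTSZ, CTSC, CTSK, CTSH and CTSV. In it, CTSD and CTSZ overlapped, as did CTSC and CTSK. The TPC-1 control order was CTSB, CTSL, CTSD, CTSZ, CTSA, CTSC, CTSV, CTSK, CTSS and CTSH, and no neighbours overlapped there. In siRNA libraries, CTSC and CTSK overlapped in K1, and in TPC-1 CTSL overlapped CTSD and CTSD overlapped CTSZ.

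Summed over the 10 genes, the level was 169.9 ± 9.10 FPKM in K1 control libraries and 133.9 ± 6.36 FPKM in TPC-1 control libraries (SD, n = 3 each), and the 6 libraries of each line did not overlap (156.56 to 184.08 FPKM in K1, 127.72 to 142.46 FPKM in TPC-1). That separation holds for FPKM, which rests on the deposited exonic sizes discussed below. In depth-scaled counts with no length scaling, the summed levels of the lines overlapped. By FPKM, CTSL made up 36.6% of the sum in K1 control libraries and 15.3% in TPC-1 control libraries. CTSB made up 26.2% in K1 and 48.7% in TPC-1. CTSS made up 7.72% in K1 and 0.159% in TPC-1.

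Comparisons between genes depend on gene length. The deposited exonic sizes are 1.68 (CTSS) to 13.0 (CTSZ) times the length of the GENCODE 29 principal transcript, so FPKM lowers CTSZ and CTSC most. Per kilobase of principal transcript, CTSZ made up 14.5% of the pool in K1 control libraries and 28.8% in TPC-1 control libraries, against 4.14% and 9.51% by FPKM. CTSC made up 11.7% in K1 and 14.3% in TPC-1 on that scale. On that scale CTSL was still the highest in K1 and CTSB in TPC-1 control libraries, while CTSB and CTSZ were level in TPC-1 siRNA libraries, with shares of 30.5% each. In counts with no length scaling, CTSB led both lines: it held 30.7% of the cathepsin counts in K1 control libraries, where CTSL held 24.9%, and 48.4% in TPC-1 control libraries, where CTSL held 8.81%. Fold changes of 1 gene between groups do not depend on the length.

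**Figure D3:**
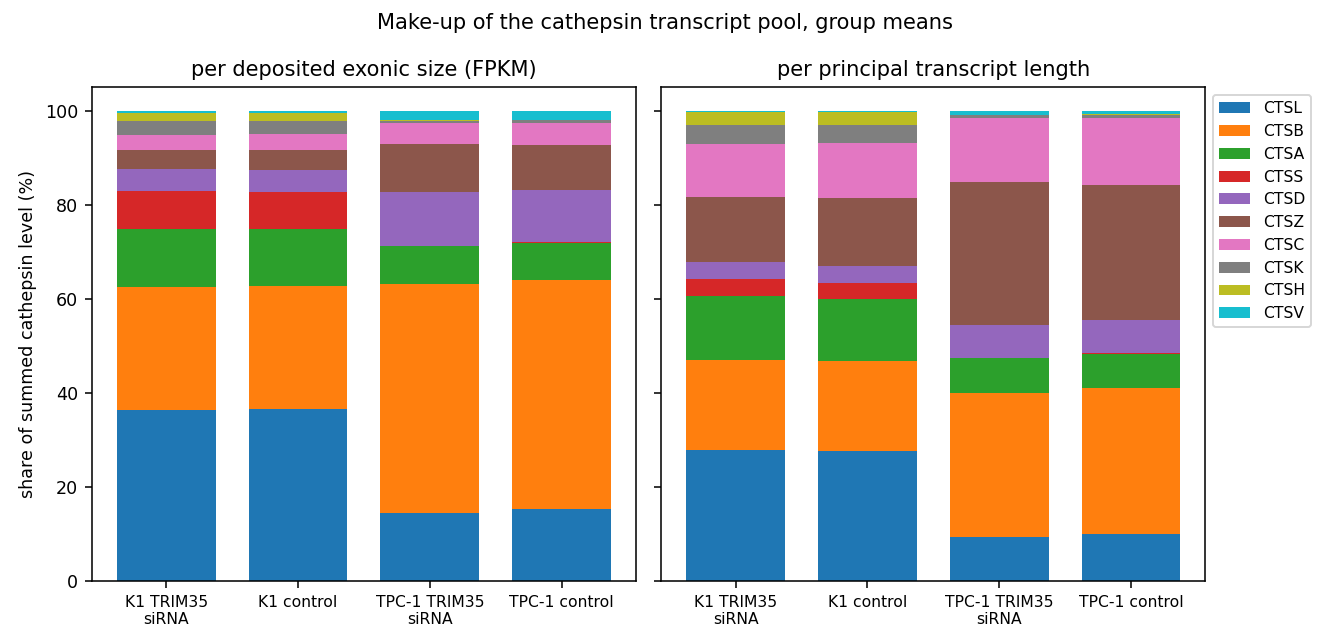
Share in percent of the summed cathepsin level held by each gene in each group (means of 3 libraries), by FPKM on the left and per kilobase of principal transcript on the right. CTSL holds 36.6% in K1 control and 15.3% in TPC-1 control libraries by FPKM, and CTSZ and CTSC take larger shares on the right.

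TRIM35 siRNA gave no called cathepsin, in libraries where TRIM35 itself was not called lower. None of the 10 passed the test in K1 or in TPC-1, against 0% of all genes called in K1 and 0% in TPC-1 (edgeR; 136 genes in K1 and 337 in TPC-1 had an unadjusted p under 0.05, and DESeq2 called 0 genes in K1 and 2 in TPC-1). For every cathepsin the siRNA and control libraries of a line overlapped. The share of all genes that did so was not counted, so this overlap is no result about the cathepsins as such. Between libraries of the same number, CTSZ was higher with siRNA in all 3 TPC-1 pairs (15.43, 13.76 and 12.13 FPKM, against 13.81, 12.90 and 11.50 FPKM in control libraries). No other cathepsin moved one way in all pairs of a line. With the replicate block the adjusted p of CTSZ was also 1 (edgeR). The labels do not mark same-numbered libraries as pairs. How many of all genes moved one way in all pairs was not counted, so the pairs of CTSZ are no result about that gene. In K1 the log2 fold changes lay between -0.08 (CTSC) and 0.07 (CTSK), and in TPC-1 between -0.13 (CTSS) and 0.11 (CTSZ). The smallest unadjusted p was 0.546 in K1 and 0.453 in TPC-1. CTSL, for example, had 54.4, 62.6 and 69.4 FPKM in K1 siRNA libraries, against 64.2, 63.6 and 58.7 FPKM in K1 control libraries, and 21.2, 21.4 and 16.3 FPKM in TPC-1 siRNA libraries, against 21.6, 21.2 and 18.7 FPKM in TPC-1 control libraries.

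The intervals show what these libraries could not exclude for the siRNA treatment, whether or not it lowered TRIM35. Over the 10 genes they spanned 0.722 to 1.43 in fold in K1, and 0.603 to 1.77 in TPC-1, where the widest was that of CTSH with its 12 to 36 counts. CTSB, the gene with the most counts, spanned 0.818 to 1.22 in K1 and 0.823 to 1.22 in TPC-1. The difference between the lines in the effect of the siRNA (K1 minus TPC-1) was called for none of the 10, against 0% of all genes (301 at an unadjusted p under 0.05; DESeq2 called 2), and the smallest unadjusted p was 0.399 (CTSZ, log2 difference -0.18).

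Within groups, most cathepsins deviated together in the same libraries. The shares of all genes that were highest or lowest in each library were not counted. The numbers of cathepsins given here are therefore no result about the cathepsins as such. Of the 10 genes, 8 were highest in K1 siRNA library 3 and 9 in K1 control library 1, while CTSK was at its lowest in both, at 3.71 FPKM. In K1 control library 3, 9 genes were lowest and CTSK highest (5.91 FPKM). K1 control library 1 and K1 siRNA library 3 lie at one end of the first principal component of deviations from group means, which held 85.9% of the variance over genes in K1. In TPC-1, 7 of the 10 were lowest in siRNA library 3 and 9 in control library 3, and that component held 71.0%. The share of mitochondrial counts ran the same way there, at 4.65%, 3.16% and 2.19% in TPC-1 siRNA libraries 1, 2 and 3, and 3.73%, 2.74% and 2.29% in the control libraries; its part in the cathepsin values was not tested. In TPC-1 siRNA libraries CTSH had 0.14, 0.08 and 0.06 FPKM and CTSK 0.87, 0.61 and 0.51 FPKM. Without K1 control library 1 and K1 siRNA library 3, no cathepsin was called in either knockdown. What the libraries at these ends differ in was not tested.

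**Figure D4:**
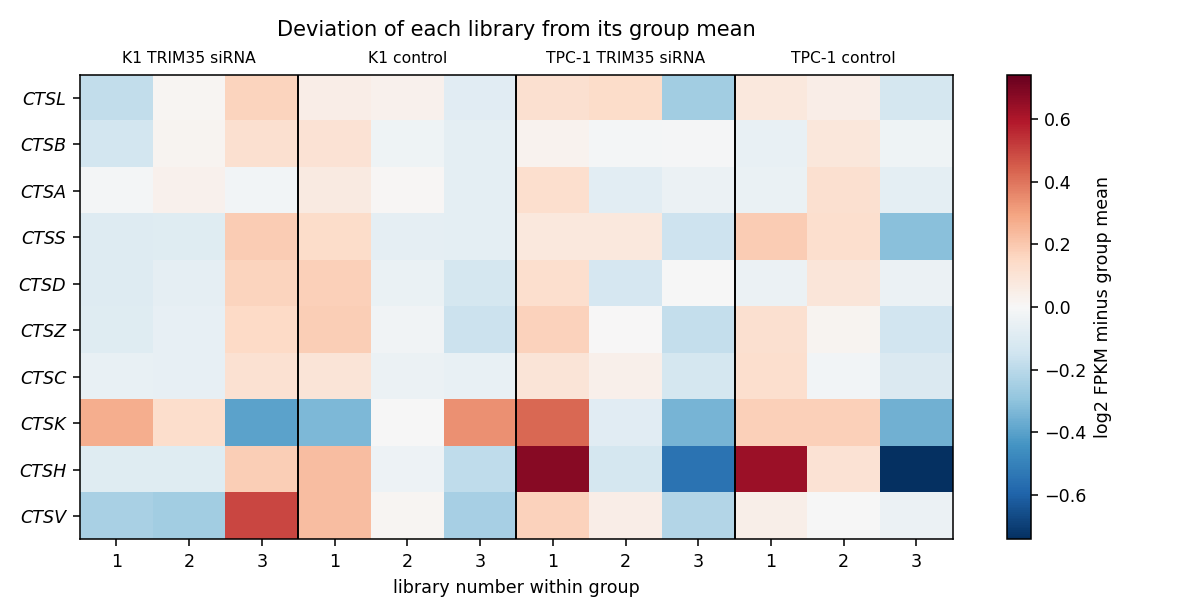
Log2 FPKM of each cathepsin in each library minus its group mean (colour), with 3 numbered libraries per group. CTSK runs against most other cathepsins in K1, and CTSH and CTSK deviate most in TPC-1.

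The inhibitors of cysteine cathepsins were few. Of 12 cystatins and serpins listed, 4 had enough counts to be tested, and 2 were higher in K1 control libraries, none lower. For this list and those that follow, the shares of all genes called are 35.8% higher and 32.1% lower in K1 control libraries, and a list's share near these is no result about the list. A gene that passed the count filter through K1 alone could only be called higher in K1. Among such genes are CSTA here (0 to 3 counts a TPC-1 control library), CTSF of the peptidases (0) and ACP5 of the acid hydrolases (0 to 1). CSTA, a cytosolic cystatin of epithelia, was at 3.25 ± 0.382 FPKM in K1 control libraries and 0.0533 ± 0.0611 FPKM in TPC-1 control libraries (SD, n = 3 each; adjusted p = 3.99e-08, edgeR). CST3, the main secreted cystatin, was at 18.9 ± 3.86 FPKM in K1 and 10.7 ± 2.70 FPKM in TPC-1 (adjusted p = 0.0176, edgeR), a call that was lost without K1 control library 1 or TPC-1 control library 2 or 3. In siRNA libraries CST3 was not called (log2 fold change 0.49, adjusted p = 0.0937, edgeR), and the genes called there were CSTA and CST7 (1.41, adjusted p = 0.00943, edgeR), a cystatin of immune cells. CSTB, the cytosolic inhibitor, was at 11.4 ± 2.49 FPKM in K1 and 12.4 ± 3.08 FPKM in TPC-1 and was not called. By FPKM, the summed cysteine cathepsins came to 4.03 ± 0.555 times the summed inhibitors in K1 control libraries and 4.63 ± 0.930 times in TPC-1 control libraries, and these ranges overlapped. Such a ratio between genes rests on the deposited exonic sizes and was not computed on another scale. It is one of transcripts and gives no balance of protein or activity.

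Of the other cathepsins and lysosomal peptidases, 9 of 11 were tested, of which 4 were higher and 2 lower in K1 control libraries, and 5 higher and 0 lower in K1 siRNA libraries. CTSF, a further papain-like cathepsin, had 241 to 320 counts in K1 control libraries and 0 counts in all 3 TPC-1 control libraries, at least 248-fold higher in K1 when the TPC-1 group total is set to 3 counts, the floor used. TPP1, the tripeptidyl peptidase, was at 26.9 ± 1.22 FPKM in K1 and 7.13 ± 0.228 FPKM in TPC-1 (adjusted p = 5.92e-10, edgeR). CTSO, another cysteine cathepsin, was at 4.35 ± 0.380 FPKM in K1 and 1.43 ± 0.0794 FPKM in TPC-1, and SCPEP1, a carboxypeptidase, at 20.8 ± 1.41 FPKM in K1 and 9.31 ± 1.21 FPKM in TPC-1.

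Of 15 tested genes that sort lysosomal enzymes, 1 was higher and 5 were lower in K1 control libraries, the lower share being close to that of all genes; in siRNA libraries 2 were higher and 4 lower. SORT1, the sortilin receptor, was at 1.15 ± 0.227 FPKM in K1 control libraries and 7.46 ± 1.77 FPKM in TPC-1 control libraries (log2 fold change -2.81). The retromer subunit VPS35 was at 13.3 ± 0.315 FPKM in K1 and 32.3 ± 5.11 FPKM in TPC-1, and the cation-dependent mannose 6-phosphate receptor M6PR at 17.0 ± 2.11 FPKM in K1 and 28.8 ± 7.64 FPKM in TPC-1. M6PR was not called in siRNA libraries (log2 fold change -0.43, adjusted p = 0.107, edgeR). GGA1, an adaptor for these receptors, was the gene higher in K1 control libraries (log2 fold change 0.97).

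Of 32 other acid hydrolases and activators tested, 16 were higher and 7 lower in K1 control libraries. GALC, the galactosylceramidase, was at 5.997 ± 0.595 FPKM in K1 and 0.143 ± 0.0764 FPKM in TPC-1, and FUCA1, the lysosomal fucosidase, at 30.3 ± 0.798 FPKM in K1 and 7.15 ± 1.01 FPKM in TPC-1. SGSH, a heparan sulfate sulfamidase, was lower in K1 (log2 fold change -2.33). Of 15 lysosomal membrane genes, 7 were higher and 3 lower. TPCN1, an endolysosomal cation channel, was at 36.4 ± 10.1 FPKM in K1 and 1.76 ± 0.226 FPKM in TPC-1, and NPC1, the cholesterol exporter, at 18.7 ± 1.195 FPKM in K1 and 41.0 ± 4.16 FPKM in TPC-1. Of 17 V-ATPase genes, which acidify the lysosome, 5 were higher and 6 lower, and of 11 MIT/TFE factors and regulators tested, 3 were higher and 3 lower. MITF was at 0.740 ± 0.113 FPKM in K1 and 1.46 ± 0.159 FPKM in TPC-1 (SD, n = 3 in each group throughout). TFE3, a more abundant factor of this family, went the other way, at 14.3 ± 0.983 FPKM in K1 and 10.6 ± 0.180 FPKM in TPC-1. It was called higher in K1 control libraries (log2 fold change 0.34), a call lost in 2 of 22 alternatives. In siRNA libraries it was not called (0.19).

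Of 9 genes listed for the MHC class II pathway, in which CTSS acts, 5 had enough counts to be tested and were higher in K1 control libraries, at low levels. Most of these passed the count filter through K1, with 0 to 1 counts a TPC-1 control library for HLA-DPB1, 0 to 4 for HLA-DPA1 and 3 to 6 for HLA-DMA, so their number says nothing of the pathway as a whole. CD74, the invariant chain, was at 0.937 ± 0.0404 FPKM in K1 and 0.103 ± 0.0404 FPKM in TPC-1 (adjusted p = 1.66e-07, edgeR). HLA-DPB1 had 599 counts over the K1 control libraries and 1 over the TPC-1 control libraries, a ratio of 527 with a counting interval of 94.2 to 20849 in depth-scaled counts. Of the 4 genes that did not pass, HLA-DRA was at 0.160 ± 0.121 FPKM in K1 and 0.103 ± 0.0709 FPKM in TPC-1, and IFI30 had 1 to 2 counts a library in K1 and 1 to 3 in TPC-1. The summed leukocyte and macrophage markers were at 6.13 to 7.63 FPKM in K1 control libraries and 1.06 to 1.38 FPKM in TPC-1 control libraries, of which CD14 gave 3.71 to 5.06 FPKM in K1. PTPRC was at 0.12 to 0.20 FPKM in K1 control libraries, and CD3E was at 0 there. The part of these markers in the values of CTSS was not tested. Of all 108 genes of the 8 lists that were tested, none was called after TRIM35 siRNA in K1 or in TPC-1.

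**Figure D5:**
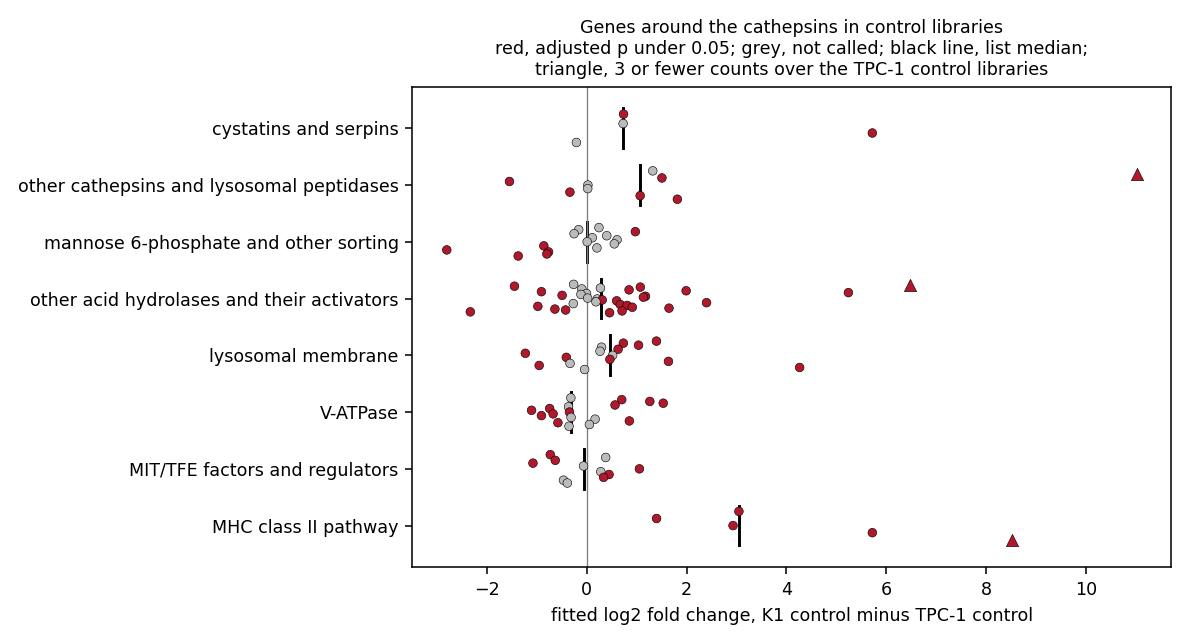
Fitted log2 fold changes of the tested genes of 8 lists, K1 control minus TPC-1 control (red, adjusted p under 0.05; grey, not called; black line, list median; triangles, genes with 3 or fewer counts over the TPC-1 control libraries, whose fitted values are no bounds). The 5 MHC class II genes that passed the count filter lie to the right of 0, and the sorting genes reach furthest to the left, at SORT1.

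The genes whose profiles over the 12 libraries were most like those of the cathepsins with the largest line differences were found among 6098 or 6099 other genes with a mean of at least 5 FPKM, by the root mean square difference of centred log2 values. For CTSS they were ALDH1A3, an aldehyde dehydrogenase (0.150), and LCP1, an actin-bundling protein (0.171). For CTSH they were CDKN1C, a cell cycle inhibitor (0.300), and ADM, adrenomedullin (0.345). For CTSK they were COL16A1, a collagen chain (0.109), and RSRP1 (0.173). Since the match was made over both lines, all 6 are bound to share the difference between them.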

How the data were processed

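RNA-seq was analysed for 12 libraries of 2 cell lines, 3 per group. Per the submitters' processing notes, cutadapt 1.9.1 and build hg38 were used; for aligner, counter, annotation and strandedness no source used here gives a name. The authors deposited raw counts and FPKM values for 61806 genes. Per the file headers, the deposited exonic gene size stands beside them, and FPKM equals counts over that size and the summed counts within 0.005.

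Testing of the counts used edgeR 4.0.16 under R 4.3.3 (filterByExpr, TMM, glmQLFit and glmQLFTest, 1 mean per group over all 12 libraries, 8 residual degrees of freedom), with Benjamini-Hochberg adjustment over 17447 genes and a call at an adjusted p under 0.05. The 44359 genes removed held 0.0838% to 0.2% of a library's counts. Intervals are at 95% and cover the spread between libraries; counting intervals and floors cover counting error only. The tests were also run on simulated counts drawn separately for each gene. Such counts hold no shift shared by the genes of a library, so that run cannot speak for shifts of this kind. DESeq2 1.42.0 and limma 3.58.1 on log2(FPKM + 0.1) were alternatives.

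The cathepsins, the 8 lists and the markers were chosen with earlier results of these data known. Named genes were all 10 cathepsins, TRIM35, up to 4 genes per list by smallest adjusted p between the control lines, the gene per list with the smallest p in each knockdown, and the 2 nearest profiles of the 3 cathepsins with the largest line difference. HLA-DRA, IFI30 and the overlapping genes were named after their values were seen. Same-numbered TPC-1 libraries deviated together (r = 0.765, 0.313 and 0.832 over 6427 genes, each over 0.1), though siRNA library 2 also had r = 0.235 with control library 1. In K1 same-numbered libraries did not (r = -0.793, 0.0218 and -0.813). There siRNA library 1 with control library 3 had r = 0.787, and siRNA library 3 with control library 1 had r = 0.820. Since deviations lay mostly along 1 component, such values cannot show which libraries were made together, and the labels do not say. Promoters were aligned locally, and RefSeq's GRCh38.p14 coordinates are given for sequences only.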

Additional observations from a re-analysis of the deposited data

How the results depend on the processing

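The 9 cathepsins called between the lines kept their direction and their call in all 22 alternatives of each line comparison, covering the scaling, the filter, DESeq2, limma, the libraries in the fit, the replicate block and each library left out. Log2 fold changes of CTSS in control libraries ranged from 3.54 to 5.96 and those of CTSH from 1.81 to 5.28, the low ends under limma on log2(FPKM + 1), whose pseudocount by construction shrinks genes of low level. CTSC was called in 1 of 22 alternatives in control libraries and in 6 of 22 in siRNA libraries. In the knockdowns no cathepsin was called in any alternative: 36 of 220 values in K1, 15 of 220 in TPC-1 and 38 of 210 of the difference changed sign, all uncalled, and lay between -0.434 and 0.319. Over all genes, the count called was 0 in each knockdown and in their difference; without the filter it was 2 in K1, 2 in TPC-1 and 4 for the difference, and with DESeq2 2 in TPC-1 and 2 for the difference, and the cause was not tested. With 1 library left out, the difference ranged from 0 to 1 genes, 1 without TPC-1 siRNA library 3 or without K1 control library 3. With the replicate number as a block (4 residual degrees of freedom), 0 genes were called in either knockdown and no call of a cathepsin changed. The replicate block across both lines and leaving out K1 control library 1 with K1 siRNA library 3 were chosen after seeing the data. Depth limits CTSH and CTSS most, with 12 to 36 and 21 to 30 counts a library in TPC-1.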
